A study of Mus musculus with 2 samples.

Results

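The liver makes most of the proteins of the complement system and of blood clotting, and 41 of their genes were followed across diets, liver zones and cell groups in single mouse liver cells. The genes were chosen by name from the 31053 genes of the deposited gene lists, as complement components, clotting factors and the inhibitors of both that the liver is known to secrete, and all 41 were found. Libraries of primary liver cells from C57BL/6 mice were compared, 1 from mice on chow and 1 from mice on a NASH diet (NASH is non-alcoholic steatohepatitis). Both diets lasted 6.5 weeks, and the labels describe the NASH diet as high in fructose, fat and cholesterol. The livers were digested with collagenase, and Percoll gradients were used to collect non-parenchymal cells together with hepatocytes. The sources used here give no age or sex of the mice and no number of mice per library, so each diet counts as 1 sample and no difference between diets could be set against a spread between animals.

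Complement is a cascade of plasma proteases that marks targets with fragments of C3 and ends in a pore of C5 to C9. It is started by C1 on antibodies, by mannose-binding lectins on sugars, or by the alternative pathway, in which factor B cleaves further C3. Clotting is a cascade of its own, in which prothrombin is turned into thrombin and thrombin turns fibrinogen into fibrin. Antithrombin, heparin cofactor II and proteins C and S restrain it, and plasmin dissolves the clot. Hepatocytes secrete most of these proteins, and several of them, fibrinogen and C3 among them, belong to the acute phase proteins whose output the liver raises in inflammation. Hepatocytes also differ along the lobule, from the periportal end, where blood enters, to the pericentral end, where it leaves.

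The chow library held 71635757 UMIs (unique molecular identifiers, each standing for 1 captured RNA molecule) over 7359 barcodes, and the NASH library held 39440182 over 5881. Hepatocytes were gated on 14 hepatocyte genes, none of them a member of the list, and numbered 1991 in chow and 1050 in NASH. The median hepatocyte had 25856 and 20716.5 UMIs. All 14 genes were read in both libraries and took 8.93% and 11.5% of hepatocyte UMIs. The median mitochondrial share was 18.5% and 23.5% of UMIs. The summed markers of 7 other cell groups ran from 0.31 to 59.9 CPM in these hepatocytes (the highest were erythroid), at 5.28 and 9.97 CPM for 16 endothelial markers and at 4.73 and 4.63 CPM for 15 markers of mononuclear phagocytes. CPM are the UMIs of a gene, or of a list, per 1000000 UMIs of the cells summed. The libraries shared 69 barcode sequences, of which 1 was a gated hepatocyte in both. The 95% intervals below are exact Poisson intervals, which cover counting error only. UMIs of a 3' kit were not divided by gene length, so an order of genes is an order of UMIs.

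In hepatocytes the members together took 4.63% of all UMIs in chow and 2.12% in NASH. The fibrinogen chains Fga, Fgb and Fgg alone made up 2.60% and 0.853% of hepatocyte UMIs, which is 56.1% and 40.2% of the members' UMIs. In chow, Fgb led with 9485 CPM (9459 to 9512), followed by Fga with 8651, Fgg with 7822, C3 with 3972 and Vtn with 2003. F11, the zymogen of the contact pathway protease factor XI, had the fewest UMIs, with 26.5 CPM (25.1 to 27.9) in chow and 17.3 (15.7 to 19.1) in NASH. All 41 had a mean of at least 5 CPM and so counted among the 7858 genes compared in hepatocytes.

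**Figure D1:**
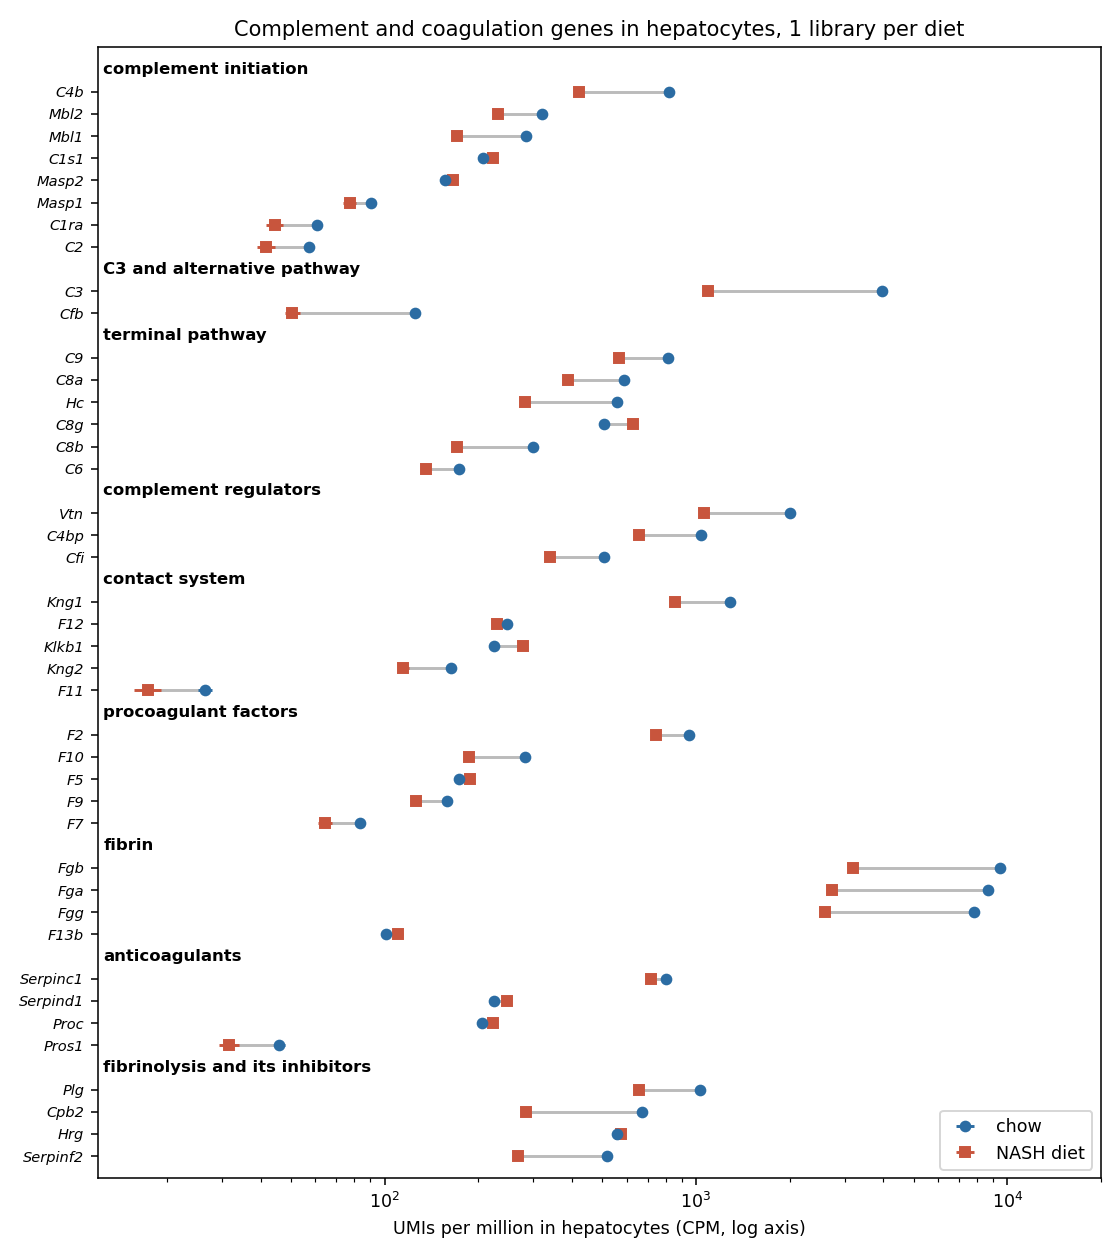
Level of each of the 41 genes in gated hepatocytes of the chow library (circles) and the NASH library (squares), in CPM on a log axis, grouped by role, with exact 95% Poisson intervals of the counts. The 3 fibrinogen chains sit between 7822 and 9485 CPM in chow and between 2605 and 3185 in NASH, C3 falls from 3972 to 1095, and for F12, Proc and Hrg the symbols nearly touch.

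Differences between diets are given as the log2 ratio of NASH over chow, computed on CPM + 5, and a gene is called lower or higher at a ratio of −1 or less or of 1 or more. In NASH hepatocytes 6 genes were called lower: C3, Cfb, Fga, Fgb, Fgg and Cpb2. Among all genes compared 1.73% were called lower, so 6 of 41 is above the background. The 41 were chosen with earlier results of these data known, so an excess over the background, here or below, is no independent check. Of 1062 other genes with a mean of at least 100 CPM, 51 were called lower. None of the 41 was called higher, against 1.88% of all genes. Below 0 lay 32 of the 41 ratios, where the background was 35.8%. The median ratio was −0.49 for the 41 genes and 0.09 for all genes compared, and without Fga, Fgb, Fgg and C3 the other 37 had a median of −0.46. The members just short of the threshold were Hc at −0.97, C4b at −0.95, Serpinf2 at −0.94 and Vtn at −0.92.

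**Figure D2:**
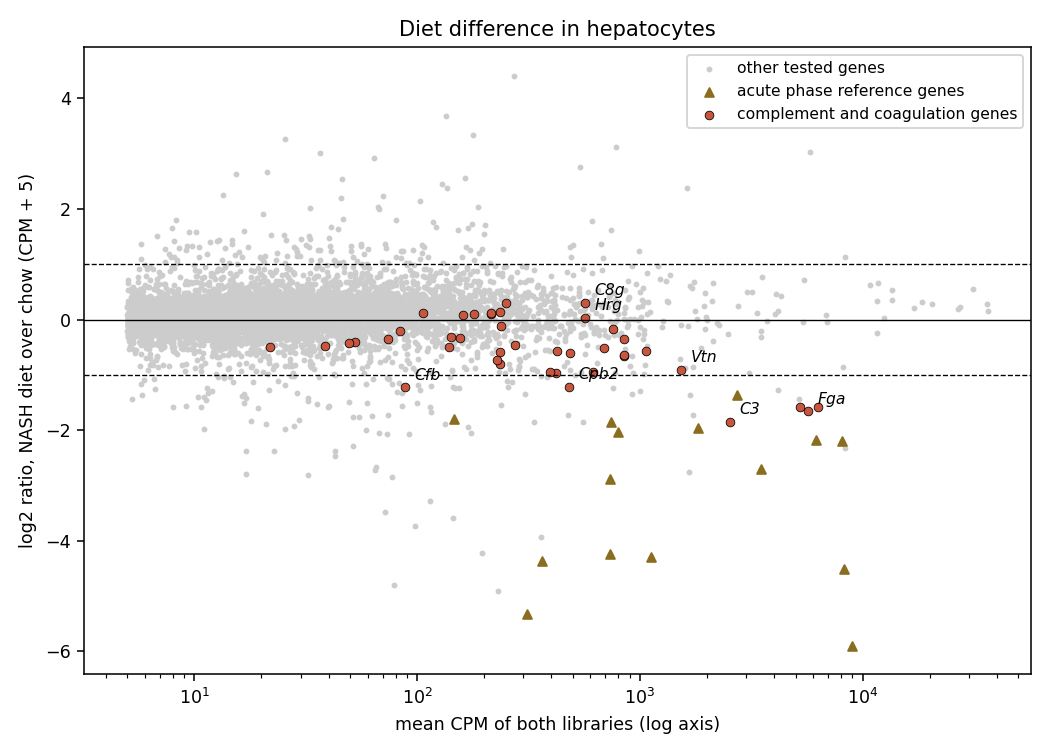
Log2 ratio of NASH over chow in hepatocytes (CPM + 5) against the mean CPM of both libraries on a log axis, 1 point per gene compared. Circles are the 41 members, triangles the 15 acute phase reference genes, small points all others, and dashed lines mark the thresholds at −1 and 1: 6 members lie at or below −1 and none at or above 1, while all 15 triangles lie below −1.

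The fibrin genes held the largest drop in UMIs. Fibrinogen is a hexamer of 3 kinds of chain, and their genes lie side by side within 42140 bases on mouse chromosome 3 (GRCm38, GENCODE M21): Fgg at chr3:83007724-83015049 and Fga at chr3:83026076-83033627 on the plus strand, Fgb at chr3:83040141-83049863 on the minus strand. Fga, the alpha chain, fell from 8651 CPM in chow to 2739 in NASH, a log2 ratio of −1.66 (−1.67 to −1.64). Fgb, the beta chain, fell from 9485 to 3185 (−1.57), and Fgg, the gamma chain, from 7822 to 2605 (−1.58). The 3 chains thus differed between the diets by nearly the same factor, 3.15-fold, 2.98-fold and 3.00-fold on this scale. F13b, the carrier subunit of the fibrin-crosslinking factor XIII, had 101.4 CPM in chow and 110.5 in NASH, a ratio of 0.12.

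For the fibrinogen genes and C3, the bases before the start sites were read from RefSeq's promoter table (build GRCm38.p6), which held 33 of the 41 members. The sequences below are written 5′ to 3′ on the gene's own strand and end at the RefSeq start site, at chr3:83007474-83007723 (plus) for Fgg, chr3:83049864-83050113 (minus) for Fgb and chr17:57228137-57228386 (minus) for C3. For Fga the printed stretch, chr3:83025903-83026075 (plus), stops 77 bases earlier, where GENCODE M21 starts the gene. Capitals mark matches, on either strand, to TTCNNNGAA (the palindrome bound by STAT factors), to TTGCNNAA (a C/EBP site) and to GTTAAT (the core of an HNF1 site).
Fgg: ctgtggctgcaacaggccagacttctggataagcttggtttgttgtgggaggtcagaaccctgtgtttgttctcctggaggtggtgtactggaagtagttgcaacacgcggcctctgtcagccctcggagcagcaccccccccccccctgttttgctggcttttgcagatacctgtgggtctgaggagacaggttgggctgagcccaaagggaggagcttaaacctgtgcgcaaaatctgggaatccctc
Fga: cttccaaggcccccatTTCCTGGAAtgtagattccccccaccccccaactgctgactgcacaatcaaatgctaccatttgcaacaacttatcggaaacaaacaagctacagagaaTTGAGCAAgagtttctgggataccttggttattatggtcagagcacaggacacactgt
Fgb: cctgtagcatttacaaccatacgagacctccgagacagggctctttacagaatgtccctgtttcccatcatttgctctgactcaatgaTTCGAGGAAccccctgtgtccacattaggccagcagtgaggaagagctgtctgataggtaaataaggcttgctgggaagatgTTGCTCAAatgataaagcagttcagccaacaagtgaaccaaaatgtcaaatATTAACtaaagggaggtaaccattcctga
C3: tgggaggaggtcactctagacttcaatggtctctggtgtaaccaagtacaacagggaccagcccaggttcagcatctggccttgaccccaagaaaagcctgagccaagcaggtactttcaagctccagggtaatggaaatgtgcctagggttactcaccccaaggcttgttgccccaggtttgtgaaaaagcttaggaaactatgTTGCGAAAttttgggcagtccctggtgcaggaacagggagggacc
Fga and Fgb each held 1 match to every one of these motifs within 250 bases, C3 held 1 C/EBP match 45 to 38 bases before its start, and Fgg held none. In Fga the STAT match lay 234 to 226 and the C/EBP match 135 to 128 bases before the start. Its GTTAAT match, 43 to 38 bases before the start, is in the bases not printed. In Fgb the matches lay at 162 to 154, 80 to 73 and 29 to 24. Over the 33 members, STAT letters were found in 6 (18.2%, against 8.13% of 27025 genes with the same window) and C/EBP letters in 10 (30.3%, against 10.8%). GTTAAT was found in 9 (27.3%, against 7.49%). Of the other members called lower in NASH, Cpb2 held no match to any of the motifs and Cfb was not in the promoter table. The STAT letters were also found in C8a, F9, Masp2 and Pros1, which were not called lower. These are letter matches and describe the sequence only, and a link to the diet ratios was not tested.

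C3, the component on which all 3 starting routes meet, was the member with the lowest ratio. It fell from 3972 CPM (3954 to 3989) to 1095 (1082 to 1109), a log2 ratio of −1.85 or 3.61-fold lower. Cfb, the factor B of the alternative pathway, fell from 125 to 50.6 CPM (−1.23, −1.34 to −1.12). Cfb and its neighbour C2 are overlapped on the same strand by the annotated gene Gm20547, so their counts are less certain than those of C3.

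Of the 8 genes that start complement, none was called. C4b, the C4 that is cut by C1s and by the lectin proteases, had 816 CPM in chow and 420 in NASH (−0.95). The lectins that recognise sugars had 286 and 171 CPM for Mbl1 (−0.72) and 320 and 231 for Mbl2 (−0.46). Their proteases lay near 0, with Masp1 at −0.21 and Masp2 at 0.08. The C1 proteases stood at −0.40 (C1ra) and 0.10 (C1s1), and C2, which joins C4 in the C3 convertase, at −0.41. C1ra, C1s1 and C4b have near-identical gene copies that can share reads, so their single values are less certain.

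The terminal pathway, whose proteins build the pore, was called in 0 of 6. Hc, the gene of C5, had 556 CPM in chow and 282 in NASH (−0.97). C9, the subunit that polymerises, had 811 and 564 (−0.52). The 3 chains of C8 did not lie together: C8a had 589 and 387 CPM (−0.60), C8b 299 and 171 (−0.79), and C8g, the lipocalin chain, 506 and 627. The C8g ratio of 0.31 (0.26 to 0.35) was the highest of the 41, within counting error of Klkb1 at 0.30. C6 had 174 and 136 CPM (−0.34). The 3 regulators had ratios between −0.92 and −0.57 and no call, with Vtn (vitronectin, which blocks pore insertion) at 2003 and 1060 CPM, C4bp (the C4b-binding protein) at 1035 and 657 and Cfi (the protease that cuts C3b and C4b) at 506 and 339.

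The contact system and the procoagulant factors were called in 0 of 5 each. Kng1, a kininogen that carries bradykinin, had 1282 and 859 CPM (−0.57), and its near-copy Kng2 had 164 and 115.0 (−0.49). F12, the factor XII that starts the contact pathway, had 248 and 230 CPM (−0.11), F11 stood at −0.49, and Klkb1, the prekallikrein that F12 activates, had 225 and 277 (0.30). Klkb1 is overlapped on its strand by Gm45753. Prothrombin, F2, had 952 CPM in chow and 745 in NASH (−0.35). F7 and F9, proteases of the extrinsic and intrinsic routes, stood at −0.35 and −0.32, F10, where the routes meet, at −0.58 (283 and 187 CPM), and the cofactor F5 at 0.11 (173 and 187).

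The anticoagulants were the role with a median nearest to 0, at −0.02, and none of the 4 was called. Antithrombin, Serpinc1, had 804 CPM in chow and 719 in NASH (−0.16), heparin cofactor II, Serpind1, had 224 and 247 (0.14), and protein C, Proc, had 205 and 224 (0.12). Protein S, Pros1, had 45.8 and 31.7 (−0.47). The 6 vitamin K-dependent members (F2, F7, F9, F10, Proc and Pros1) had a median of −0.35. Among the genes of clot dissolution, Cpb2, the carboxypeptidase that slows fibrinolysis (TAFI), fell from 672 CPM (665 to 679) to 286 (279 to 293), a ratio of −1.22. Plasminogen, Plg, had 1032 and 659 CPM (−0.64), Serpinf2, its antiplasmin, 520 and 268 (−0.94), and Hrg, the histidine-rich glycoprotein, 560 and 573 (0.03).

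Members taken as textbook positive acute phase proteins were C3, C4b, C4bp, C9, Cfb and the 3 fibrinogen chains. They were below 0 in 8 of 8 and called lower in 5, with a median of −1.40. Of all genes compared, 35.8% lay below 0 and 1.73% were called lower. The 3 listed as negative ones (Serpinc1, F12 and Hrg) had a median of −0.11. The 30 members on neither list had a median of −0.44 and 1 call, Cpb2. A reference of 15 other acute phase genes was lower in 15 of 15, with a median of −2.69. All these lists were chosen with earlier results of these data known, so neither the 8 of 8 nor the 15 of 15 is an independent check. In the reference list Saa1 stood at −4.50, Saa2 at −5.90, Orm1 at −2.69 and Orm2 at −4.36. Of 13 plasma protein genes none was called, and their median was −0.02, with Alb at 0.55, Ttr at 0.72 and Apoa1 at −0.04; all 13 also served to gate the hepatocytes. Of 48 further complement and clotting genes, 16 reached 5 CPM in hepatocytes. Serpina10, the protein Z-dependent inhibitor of factor Xa, fell from 529 to 143 CPM (−1.85). Cfd, the protease that cuts factor B, rose from 0.66 to 29.96 CPM (2.63).

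The hepatocytes of the libraries differed in mitochondrial share, so the diet ratios were also taken within bands of that share. In hepatocytes of 20 to 30% mitochondrial UMIs, 682 in chow and 760 in NASH, the same 6 genes and C4b were called lower, with C3 at −1.75 and Fgb at −1.44, where 1.75% of all tested genes were called lower. In those of 10 to 20%, 1162 and 177 cells, the 6 and a further 4 (Hc, C8b, C9 and Serpinf2) were called, against 1.86% of all tested genes. Barcodes with hepatocyte RNA but under 5000 UMIs, 2149 and 1072 in number, gave a median ratio of −1.25 and 25 calls, where the background was 4.48%, and all 41 genes lay below 0 there. Among barcodes of 30 to 80% mitochondrial UMIs (195 and 299), 4 genes were called lower (C3, Fga, Fgb and Fgg) against 2% of all tested genes, with Cpb2 at −0.97 and Cfb at −0.77. Calls numbered 7 in the band of 20 to 30% and 10 in that of 10 to 20%, against 6 over all hepatocytes and 4 among barcodes of 30 to 80%. The part of mitochondrial share in the diet ratios was not tested.

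Single hepatocytes varied widely around these sums. The 10th and 90th percentiles of Fgg were 3759 and 11049 CPM in chow and 706 and 4332 in NASH. Those of C3 were 1369 and 6268 in chow and 199 and 1965 in NASH. The median cell differed like the sum, with 7930 CPM of Fgg and 3675 of C3 in chow and 2760 and 952 in NASH. The chow 10th percentile of Fgb (4731 CPM) lay above the NASH 75th percentile (4392). C8g had medians of 492 and 585 CPM, and its 10th to 90th percentiles overlapped (268 to 735 and 322 to 948). Each cell was then thinned to 5000 UMIs and its members were ranked against the sum of the 15 acute phase reference genes, over 1991 and 1050 cells that share a library each. Spearman's rho ran from −0.09 to 0.55 in chow and from −0.16 to 0.49 in NASH, with medians over the members of 0.11 and 0.16. Fgg had 0.55 in chow and 0.49 in NASH, Fgb 0.48 and 0.49, Vtn 0.48 and 0.39, C3 0.52 and 0.31, Fga 0.37 and 0.39 and Kng1 0.33 and 0.40. At the other end C4bp had −0.09 and −0.16. Within each library, cells with more acute phase UMIs thus tended to have more fibrinogen, C3 and vitronectin UMIs. The sum was not the same mix in both libraries. Saa1 and Saa2 had 15797 and 17631 CPM in chow hepatocytes and 693 and 291 in NASH, and the 15 genes took 7.85% and 1.04% of UMIs. The part of lobule position and of mitochondrial share in these rho values was not tested.

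The place of the members along the lobule was examined within each library. Hepatocytes were ranked by a score of 12 pericentral and 13 periportal genes, none of them a member, and cut into 3 equal parts, which are ranges of a score and not cell types. The parts held 664, 664 and 663 chow cells and 350 NASH cells each. Their median mitochondrial share was 17.9%, 17.8% and 20.3% from periportal to pericentral in chow and 24.6%, 23.1% and 22.04% in NASH, and their median UMIs ran from 25288 to 26706 and from 19178 to 23793. The zone ratio is the log2 of pericentral over periportal CPM + 5, and a gene is called when it reaches 0.5 or −0.5 in both libraries.

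Most members had more UMIs at the periportal end. Called periportal in both libraries were 10 members (background 2.55%), namely C3, Hc, C8a, C2, Cfb, Cfi, Fgg, Plg, Serpinc1 and Serpind1. Of 1062 other genes with a mean of at least 100 CPM, 62 were called periportal. Hc, C8a, Cfi, Plg and Serpind1 kept the call under all 16 alternatives run for it, whereas C3, C2 and Serpinc1 lost it under 4 each, Fgg under 3 and Cfb under 1. Called pericentral was 1, C6 (background 5.4%). Below 0 in both libraries lay 31 of the 41, above 0 in both 7, and 3 (C4b, Hrg and Proc) had opposite signs. The median zone ratio was −0.31 in chow and −0.54 in NASH, against 0.10 and 0.17 for all genes compared. The 15 acute phase reference genes had medians of −0.48 and −0.85 and the 13 plasma protein genes −0.21 and −0.50. A periportal lean was therefore not particular to the members. The members' summed share of UMIs was 5.04%, 5.02% and 3.84% from periportal to pericentral in chow and 2.58%, 2.27% and 1.62% in NASH.

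**Figure D3:**
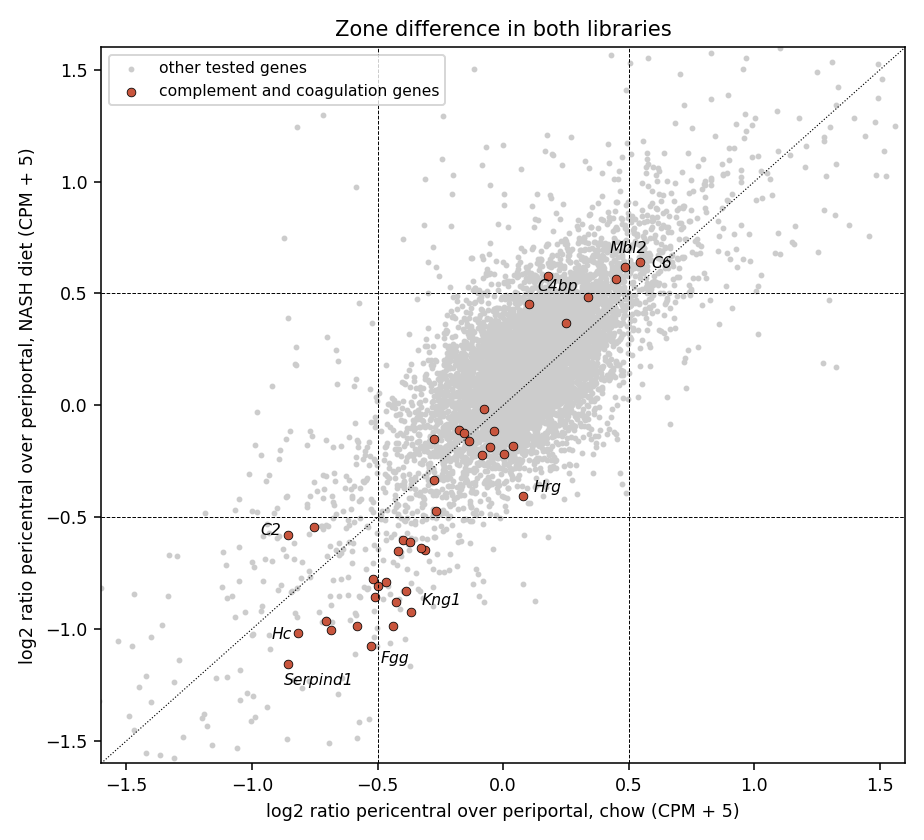
Zone ratio (log2 of pericentral over periportal CPM + 5) in chow against NASH, 1 point per gene compared, with the 41 members as outlined circles, dashed lines at −0.5 and 0.5 and a dotted line where both libraries are equal; 160 genes lie outside the axes. Most members sit at the lower left and below the dotted line, and C6 is the 1 member beyond 0.5 in both libraries.

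Serpind1 had the lowest zone ratio in NASH. Its level was 285 CPM periportally, 231 in the middle and 155 pericentrally in chow (−0.86), and 336, 280 and 148 in NASH (−1.15). Hc went from 671 over 618 to 379 CPM in chow (−0.81) and from 366 over 326 to 178 in NASH (−1.02). C8a (−0.70 and −0.97), Cfi (−0.69 and −1.01), Plg (−0.58 and −0.99) and Serpinc1 (−0.51 and −0.86) had the same direction. The 3 C8 chains again differed, with C8b at −0.31 and −0.65 and C8g at −0.18 and −0.11.

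C3 had 4439, 4386 and 3095 CPM from periportal to pericentral in chow (−0.52) and 1405, 1124 and 817 in NASH (−0.78). Of the fibrinogen chains only Fgg passed the threshold in both libraries (−0.53 and −1.08), while Fgb stood at −0.44 and −0.99 and Fga at −0.39 and −0.83. In chow all 3 chains were level over the first 2 parts and lower in the third, as with Fgb at 10387, 10428 and 7656 CPM. In NASH each part had less than the one before, as with Fgb at 4103, 3651 and 2069.

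At the pericentral end 7 members had more UMIs in both libraries, among them both mannose-binding lectins. C6 had 148, 155 and 218 CPM in chow (0.54, 0.44 to 0.64) and 111, 112 and 176 in NASH (0.64, 0.47 to 0.81). Mbl2 stood at 0.48 and 0.62, Mbl1 at 0.45 and 0.56, C4bp at 0.34 and 0.48, F5 at 0.25 and 0.37, F11 at 0.18 and 0.58 and Pros1 at 0.10 and 0.45. The C6 call was lost with a mitochondrial limit of 20% and with none, where no member was called pericentral. It was also lost without the 5% of hepatocytes with most UMIs, where Mbl2 was called instead.

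**Figure D4:**
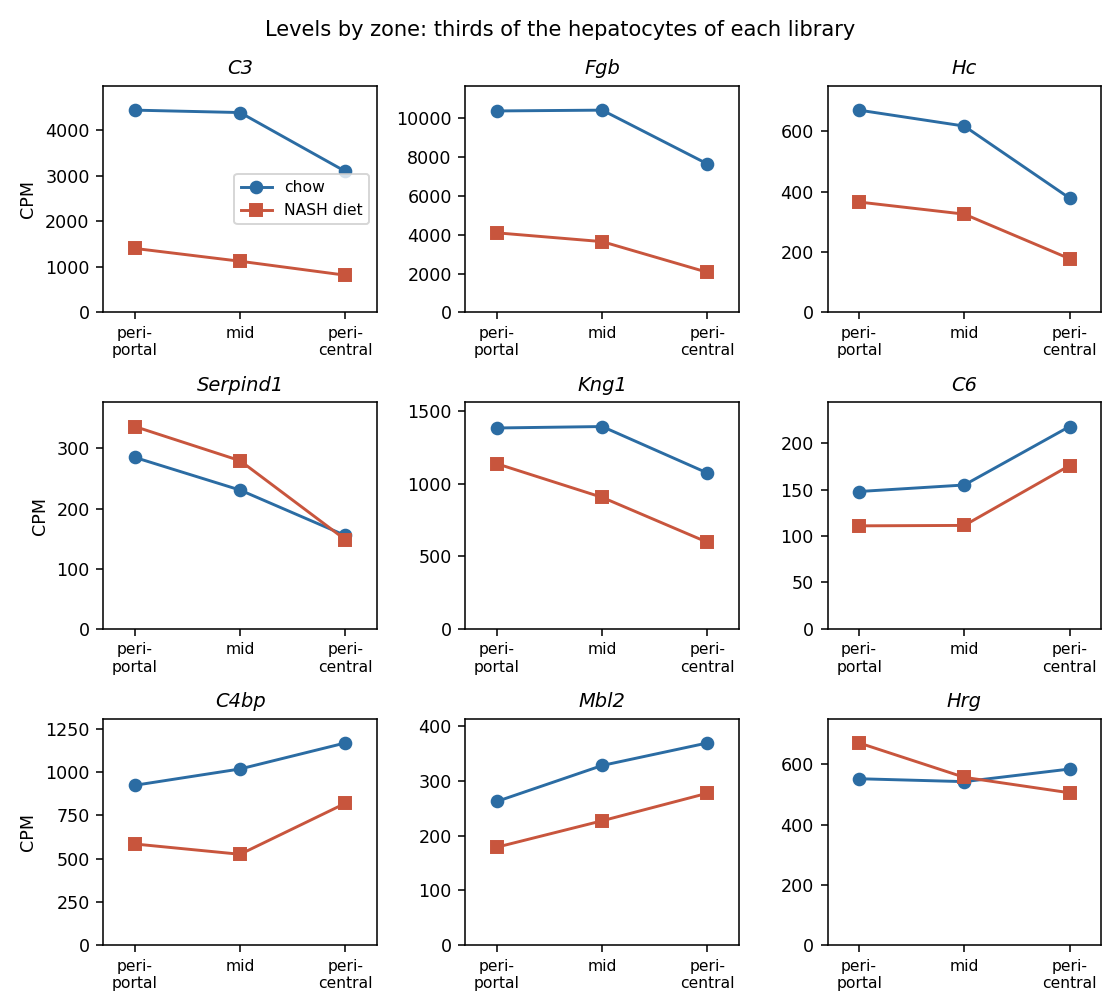
CPM of 9 members in the periportal, middle and pericentral part of the hepatocytes of each library (circles chow, squares NASH), on axes that start at 0. C3, Fgb, Hc, Serpind1 and Kng1 are lowest pericentrally in both libraries, C6, C4bp and Mbl2 are highest there in both, and Hrg goes from 552 to 584 CPM in chow and from 670 to 505 in NASH.

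The zone ratio was lower in NASH than in chow for 28 of the 41 members, against 36.5% of all genes compared. The same held for 11 of the 15 acute phase reference genes and 9 of the 13 plasma protein genes. By library, 10 members reached −0.5 in chow (background 3.87%) and 21 in NASH (3.83%), and 1 and 4 reached 0.5 (6.45% and 12.8%). The lowest differences between the libraries' zone ratios were those of Kng1 (−0.56, from −0.36 in chow to −0.93 in NASH), Fgb (−0.55) and Fgg (−0.55). Put the other way, the diet ratio of Fgb was −1.34 in the periportal part, −1.51 in the middle and −1.88 in the pericentral part, and 6, 6 and 11 members reached a diet ratio of −1 in the 3 parts, where 2.04%, 2.11% and 1.83% of all tested genes did. In all 3 parts 30 members lay below 0 and 5 above. The difference between the zone ratios was not tested, since each library gives 1 value, and the mitochondrial share of the parts ran in opposite directions in the libraries.

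Other liver cells were examined for members that they themselves transcribe. Free hepatocyte RNA enters every droplet, so the UMIs of each gene in a cell group were compared with the UMIs that carried-over hepatocyte RNA would give, scaled on the 14 hepatocyte genes. A member is called above carry-over at 3 times that number or more with at least 10 UMIs over both libraries. The 14 genes themselves ranged from 0.51 to 2.53 times the fitted value in endothelial barcodes (50 in chow and 50 in NASH) and from 0.37 to 2.95 times in mononuclear phagocyte barcodes (66 and 49). In some group 7 members were called (C4b, C6, C1ra, C1s1, C2, Masp1 and Pros1). Of all genes compared 81.9% were called. The prediction rises with a gene's hepatocyte level, and the members were chosen as genes that the liver is known to secrete. The lower share of the members, 7 of 41, is therefore no finding about them. No member was called in lymphocyte (background 28.1%), neutrophil (3.16%) or erythroid barcodes (0.547%). The fibrinogen chains stayed below carry-over, with Fgb at 119 UMIs of 282 predicted in endothelial and 149 of 419 in phagocyte barcodes.

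**Figure D5:**
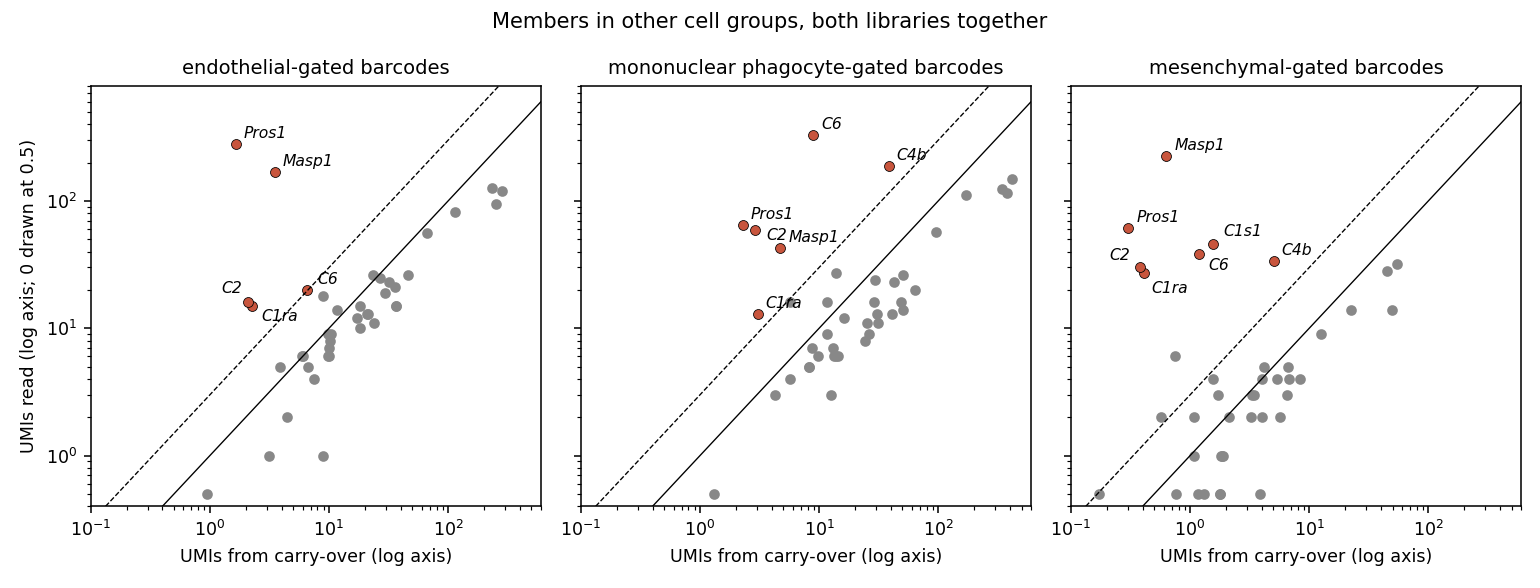
UMIs of each member against the UMIs predicted from hepatocyte carry-over in endothelial, mononuclear phagocyte and mesenchymal barcodes, both libraries together, on log axes (genes with 0 UMIs are drawn at 0.5). The solid line marks equality and the dashed line 3 times carry-over; named points are called, led by Pros1 and Masp1 in endothelial, C6 and C4b in phagocyte and Masp1 in mesenchymal barcodes.

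In endothelial barcodes 5 members were called (background 75.8%). Pros1 had 282 UMIs where carry-over predicted 1.66, in 41 of 50 chow and 43 of 50 NASH barcodes. Its endothelial level of 402 CPM in chow and 408 in NASH compared with 45.8 and 31.7 in hepatocytes. Lymphocyte barcodes (8 and 20, with a median of 5092 and 5584.5 UMIs against 5308 and 6210.5 in endothelial ones) held 0 Pros1 UMIs, which allows up to 49.0 and 25.2 CPM. Masp1 had 226 and 256 CPM in endothelial barcodes, against 90.2 and 77.2 in hepatocytes. C6, C1ra and C2 passed with 20, 15 and 16 UMIs. Of the C6 UMIs, 17 lay in 6 NASH barcodes, with 52.9% of them in 1 barcode. The endothelial barcodes also held 1263 UMIs of the phagocyte markers and 1433 of the mesenchymal markers beside 14523 of their own. Masp1 had a higher level in mesenchymal barcodes, at 1002 CPM in chow and 890 in NASH. The part of other cells' RNA in the endothelial calls, Masp1 among them, was not tested.

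In mononuclear phagocyte barcodes, which include Kupffer cells, 6 members were called (background 73.4%). C6 had 560 CPM (496 to 629) in chow, in 51 of 66 barcodes, and 179 (132 to 239) in NASH, in 9 of 49, where 1 barcode held 36.2% of its UMIs. The median depth of these barcodes was 6274.5 UMIs in chow and 2584 in NASH. The chow phagocyte level of C6 was above its hepatocyte level of 174 CPM. C4b had 341 CPM in chow and 61.1 in NASH, C2 had 93.3 and 45.8, Pros1 87.3 and 80.2 and Masp1 51.6 and 64.9, and C1ra passed with 13 UMIs. The NASH values rest on few barcodes. C4b had 16 UMIs there, where carry-over predicted 6.73, in 7 barcodes, with 56.25% in 1. C2 had 12 NASH UMIs in 5 barcodes, with 50% in 1, and Pros1 had 21 in 8, with 33.3% in 1. Masp1 was seen in 6 of 66 chow and 7 of 49 NASH barcodes, with 38.5% and 41.2% of its UMIs in 1 barcode. The gate also held 1438 UMIs of the endothelial markers and 799 of the mesenchymal markers beside 20171 of its own, and their part in the Masp1 call was not tested. C1qa, which encodes a chain of C1q and is no member, ran alongside with 4471 and 1367 CPM, and the phagocyte markers' own share of UMIs was 2.90% in chow and 2.12% in NASH. Whether the gate held the same phagocyte types in both libraries was not tested.

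The mesenchymal gate held 8 chow and 7 NASH barcodes, with 7 members called (background 45.2%). Masp1 led with 1002 CPM (815 to 1220) in chow and 890 (741 to 1060) in NASH, against 90.2 and 77.2 in hepatocytes. Pros1 had 263 and 249.2 CPM, C1s1 213 and 178, C2 152 and 107, C1ra 111 and 114, C6 324 and 42.7, and C4b 182 and 114. The NASH value of C6 was 6 UMIs in 3 barcodes, with 66.7% in 1, and in chow 1 barcode held 43.75% of its UMIs. These 15 barcodes also held 2102 endothelial and 1031 phagocyte marker UMIs beside 5953 of their own, so other cells' RNA was in them. With barcodes of more than 1 marker set left out, C1ra was no longer called in any group and Cfb was.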

How the data were processed

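Single-cell RNA-seq libraries, 1 per diet, were analysed from UMI count matrices that the authors deposited without normalization. The file headers name Cell Ranger 3.0.2, the submitters' processing notes name Cell Ranger 3.1.0, Seurat and mm10, and the labels name the 10x 3' kit, version 3. A merged matrix, holding 86.4% of the chow UMIs, served as an alternative. Columns matched to no sample numbered 0.

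The 41 members and all gene lists were chosen with earlier results of these data known. All members are named in the text, as are further pathway genes past the diet threshold (except a result not reported here), 4 acute phase genes (Saa1, Saa2, Orm1 and Orm2) and 3 plasma protein genes (Alb, Ttr and Apoa1). C1qa was added for its carry-over call.

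Barcodes under 200 genes, under 500 UMIs or over 30% mitochondrial UMIs were dropped, leaving 4326 in chow and 2369 in NASH. Hepatocytes had at least 5000 UMIs and at least 50% of the median share of hepatocyte markers. Other groups had at least 3 of their own markers and 0.5% of non-mitochondrial UMIs in them. No doublet caller was run, but barcodes passing both gates (22 and 18) were left out, and 23 and 93 passed neither. Counts were summed per library and compared as log2(CPM + 5), for genes with a mean of at least 5 CPM. With 1 library per diet there is no test and no p-value. The diet calls and the carry-over calls were checked on simulated counts, but the gates and the zone split were not. Near-identical copies may share reads. The 12 members overlapped on the other strand (among them Fgg, Hc, Plg and Serpinc1) may share reads with the overlapping genes if strand was not used. Python 3.11.15, numpy 2.4.6, scipy 1.17.1, pandas 2.3.3 and matplotlib 3.10.9 were used, with GENCODE M21 for gene positions. The alternatives were other pseudocounts, filters, gates, mitochondrial limits and bands, scalings, zone scores, carry-over limits and matrices.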

Additional observations from a re-analysis of the deposited data

Results flagged for a closer look

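Hrg, the histidine-rich glycoprotein, stood out because its zone ratio had opposite signs in the libraries with neither counting interval reaching 0. It was 0.081 (0.02 to 0.14) in chow, with 552 CPM periportally and 584 pericentrally, and −0.40 (−0.49 to −0.32) in NASH, with 670 and 505 CPM. The difference was not tested, since each diet has 1 library. Over the alternatives the NASH value ran from −0.55 to −0.35. The chow value ran from −0.19, with a mitochondrial limit of 20%, to 0.12, so its sign rests on the cells kept.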

How the results depend on the processing

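The 6 genes called lower in NASH (C3, Cfb, Fga, Fgb, Fgg and Cpb2) stayed called under every alternative listed at the outset. The number of calls grew to 15 with a mitochondrial limit of 20% (1309 chow and 291 NASH cells), to 10 within hepatocytes of 10 to 20% mitochondrial UMIs, to 10 when ratios were centred on the median of all genes, and to 25 in barcodes under 5000 UMIs, an alternative chosen after the data had been seen. The share of all tested genes called lower in these 4 settings was 2.22%, 1.86%, 2.1% and 4.48%, against 1.73% in the reported comparison. In barcodes of 30 to 80% mitochondrial UMIs, likewise added later, 4 of the 6 were called. No setting called a member higher. Centring left 34 ratios below 0. The number of pericentral calls was 0 with a mitochondrial limit of 20%, 0 with no limit, 2 (C6 and Mbl2) with CPM taken without mitochondrial UMIs and 2 (the same pair) with a zone score common to both libraries. Without the 5% of hepatocytes with most UMIs the single pericentral call was Mbl2. Periportal calls rose to 19 with no mitochondrial limit and otherwise ran from 7 to 14. C3 lost its periportal call with a mitochondrial limit of 20%, with CPM without mitochondrial UMIs, without the 5% of hepatocytes with most UMIs and with the common zone score. Zone ratios lower in NASH numbered between 25 and 31 of 41. Calls above carry-over ran from 7 to 9. The cause of these changes was not tested. No paired analysis was possible because each diet has 1 library. With 1 library per diet, counting intervals leave out the spread between animals, which depth cannot reduce. Members called in small groups such as the 15 mesenchymal barcodes rest on few UMIs (27 to 224 each over both libraries together, and fewer in 1 library alone).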
